A study of Homo sapiens with 6 samples.

Results

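The genes described here encode the proteasome, the chambered protease that degrades ubiquitin-tagged proteins, together with its regulators, its assembly factors and the transcription factor NFE2L1. They were found by name in the deposited gene table, as symbols of the PSMA to PSMG families with a number, with POMP and NFE2L1 added and antisense transcripts and pseudogenes left out, which gave 49 of 15651 genes. The RNA came from MDA-MB-231, an established human cell line of triple-negative breast cancer (TNBC), and all 6 libraries share this single line, so that they show 1 cellular background. In the DMSO group, 3 libraries came from cells given the solvent, and in the BRL-50481 group, 3 libraries came from cells given this small-molecule inhibitor of the cyclic AMP phosphodiesterase PDE7A. The dose and time are not settled, since the protocol text and the paper have 50 μM for 72 h and a separate tag on the treated samples has 5 μM for 48 h. The paper calls its replicates biological, while the labels only number them, so p-values measure the spread between these libraries, which may in part be technical.

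The 20S core particle is a barrel of stacked rings, with alpha subunits (PSMA genes) in the outer rings and beta subunits (PSMB genes) in the inner rings. The subunits encoded by PSMB5, PSMB6 and PSMB7 carry the proteolytic sites, and in cells exposed to interferon PSMB8, PSMB9 and PSMB10 can take their places to form the immunoproteasome. The 19S regulatory particle caps the barrel. Its ring of ATPases (PSMC genes) unfolds substrates, and its other subunits (PSMD genes) bind ubiquitin chains and remove them. NFE2L1 is the transcription factor that is known to raise the expression of most of these subunits together when proteasome activity falls short. Each subunit has a fixed number of copies in the assembled particle, and cancer cells with a high rate of protein synthesis are known to depend on it.

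All values are read counts per gene that the authors scaled by the size factor of the library, called normalized counts here. Between 30750573 and 33446984 reads on genes stood behind each library. A gene was called higher or lower when limma, applied to log2 of the normalized count with 1 added, gave a Benjamini-Hochberg adjusted p under 0.05 over the 15246 genes that passed a filter on low values. All 49 proteasome genes passed that filter, with mean normalized counts over the 6 libraries from 612 for PSMB10 to 20139 for NFE2L1. The 5 markers listed for the line, among them VIM and CD44, were all present, with means of 12278 normalized counts or more in each group. Of 5 genes listed as weak or absent in it, ESR1 and KRT5 were not analysed here, PGR averaged 1.67 normalized counts with DMSO and 5.61 with BRL-50481, CDH1 averaged 38.2 and 99.8, and EPCAM was not low, at 764 and 682. Of 5 markers of other cell types, PTPRC and CD3E were not analysed here, and the summed level of CD14, COL1A1 and PECAM1 was 1111 to 1193 normalized counts under DMSO and 1242 to 1399 in BRL-50481. That sum was higher in every treated library, PECAM1 was the 1 of the 3 that passed the threshold, and its part in the results below was not tested.

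Most proteasome genes were lower in BRL-50481-treated cells, by small amounts. Of the 49 genes, 29 fell, 6 rose and 14 did not pass the threshold. Over all genes tested, 29.8% were called lower and 28.9% higher, and 58.7% were called in either direction. Among the 7934 genes within the proteasome genes' range of mean counts, 39.8% were lower and 29.0% higher, and the median was −0.054 on the log2 scale. The median log2 fold change of BRL-50481 over DMSO was −0.18 over the proteasome genes (quartiles −0.41 and −0.024) and 0.015 over all genes (quartiles −0.30 and 0.37). None of the 49 changes exceeded 1 on the log2 scale in either direction. The falls ran down to −0.62 and the rises up to 0.43. The groups did not overlap in 35 genes, with the treated libraries lower in 28 and higher in 7, while over all genes tested 32.3% and 31.9% were separated in this way. The standard deviation between the log2 fold changes was 0.26 over the proteasome genes, 0.62 over all genes and 0.42 over those within the same range of mean counts. In bulk RNA of a single line, a change in all cells and a change in part of them cannot be told apart. Values scaled by library do not show whether total RNA per cell changed.

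**Figure D1:**
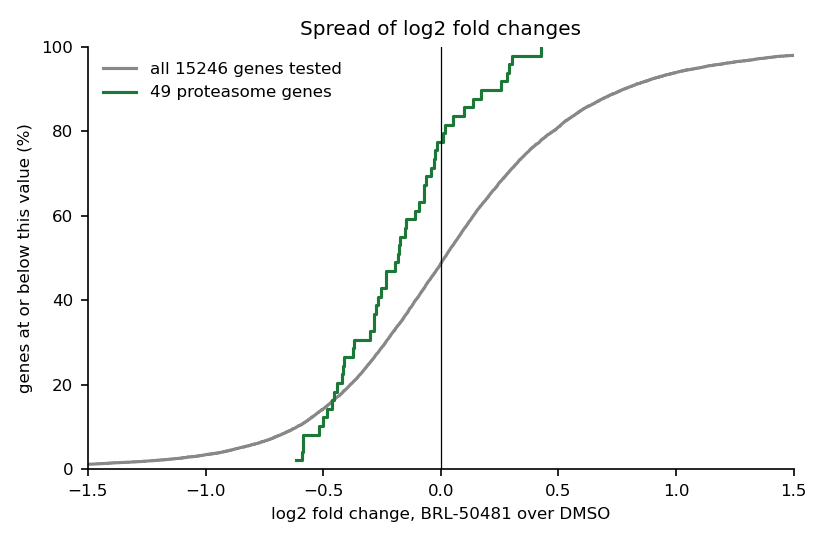
Cumulative share of genes in percent (vertical axis) at or below each log2 fold change of BRL-50481 over DMSO (horizontal axis), for all 15246 genes tested in grey and the 49 proteasome genes in green. The green curve runs from −0.62 to 0.43 and has its middle at −0.18, while the grey curve has longer tails on both sides and its middle at 0.015.

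The summed level of the 47 genes that encode subunits, regulators and assembly factors was 208453, 226557 and 221064 normalized counts in the DMSO libraries and 189376, 187617 and 190635 in the BRL-50481 libraries. The DMSO libraries were all above the BRL-50481 libraries, and the spread within DMSO was the wider, with an SD of 9282 against 1516 (n = 3 each). These genes took 0.670% ± 0.0263 of all normalized counts in DMSO and 0.610% ± 0.00436 (SD, n = 3 each) in BRL-50481. DMSO replicate 1 had the lowest of the 3 DMSO values in 40 of the 49 genes and the highest in 5. The same count was not made over all genes, so this is not shown to be particular to proteasome genes. Without that library, 32 genes were lower and 6 higher, and the median was −0.22. Over all genes that fit called 4933 lower and 4876 higher, against 4546 and 4400 with all libraries. Without BRL-50481 replicate 2, which left the fewest calls, 23 were lower and 5 higher, with a median of −0.17. The counts over all genes were then 4034 lower and 3751 higher, so they moved in the same direction as those of the proteasome genes.

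**Figure D2:**
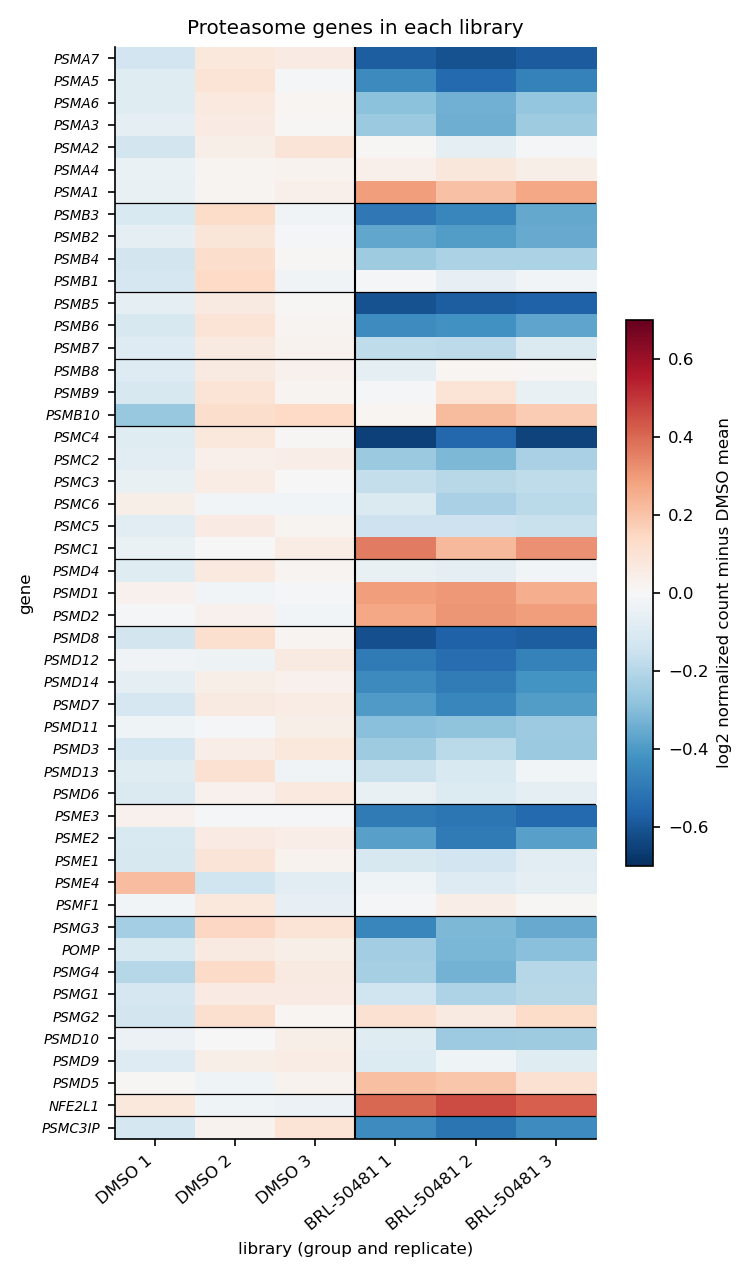
Log2 normalized count of each proteasome gene (rows, grouped by role) in each library (columns), relative to the mean of the DMSO libraries, from blue (lower) to red (higher). The 3 BRL-50481 libraries resemble each other, and DMSO replicate 1 is pale blue in most rows.

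In the 20S alpha ring, 4 of 7 genes fell (57.1%), 1 rose (14.3%) and 2 did not pass the threshold. Among all genes within the proteasome genes' range of mean counts, 39.8% were lower and 29.0% higher. PSMA7, the subunit of the ring with the largest fall, had 13309.6, 15367 and 15221 normalized counts with DMSO and 9802, 9572 and 9747 in BRL-50481. All treated libraries lay well below all controls (log2 fold change −0.59, standard error 0.0558, adjusted p = 1.45e-06; chromosome 20, 62136733 to 62143440 of hg38). PSMA5 (−0.49), PSMA6 (−0.30) and PSMA3 (−0.29) also fell. PSMA1 moved the other way, from 3739.7, 3927 and 3967 in DMSO to 4749.6, 4477 and 4672 in BRL-50481. Its groups did not overlap either (log2 fold change 0.26, standard error 0.0495, adjusted p = 0.000612). PSMA2, with a log2 fold change of −0.024, and PSMA4, with 0.052, did not pass the threshold. PSMA1, PSMA2 and PSMA6 share exon sequence on their strand with another annotated gene, so that part of their reads could belong to it.

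All 7 constitutive genes of the 20S beta ring had negative log2 fold changes, and 6 of them (85.7%) passed the threshold. The catalytic genes were among these 6. Of all genes within the proteasome genes' range of mean counts, 39.8% were lower. PSMB5, which encodes the chymotrypsin-like site that clinical proteasome inhibitors target, had 4719, 5168 and 4979.6 normalized counts with DMSO and 3245, 3319.9 and 3340.1 in BRL-50481, a fall of 33.3% (log2 fold change −0.58, standard error 0.0506, adjusted p = 6.57e-07). PSMB6, the caspase-like site, had 3465, 4008 and 3795 in DMSO and 2758, 2797 and 2907 in BRL-50481 (log2 fold change −0.41, standard error 0.0592, adjusted p = 5.66e-05). The values of the 2 groups were separate for both genes. PSMB7, the trypsin-like site, changed least of the 3, with 6051, 6716 and 6549 in DMSO and 5677, 5672 and 5995 in BRL-50481 (log2 fold change −0.15, standard error 0.0522, adjusted p = 0.0214). That call was lost without DMSO replicate 2 or 3 or BRL-50481 replicate 1 or 2, and with quantile normalization, median centring or limma without a trend. Among the non-catalytic genes, PSMB3 (−0.44), PSMB2 (−0.37) and PSMB4 (−0.23) fell. PSMB1 had 4292, 5132 and 4576 in DMSO and 4613, 4471 and 4594 in BRL-50481, so that the groups overlapped and the threshold was not passed (log2 fold change −0.030, standard error 0.0617, adjusted p = 0.699). Summed over the 14 constitutive core genes, the DMSO libraries had 72419, 81730 and 78511 normalized counts and the BRL-50481 libraries 63253, 61966 and 63937, which is 0.813 of the DMSO level.

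The 3 immunoproteasome genes did not pass the threshold, and their groups overlapped. PSMB8, the counterpart of PSMB5, had 2191, 2430.3 and 2376 normalized counts with DMSO and 2221, 2349.9 and 2348 in BRL-50481 (log2 fold change −0.015, standard error 0.0575, adjusted p = 0.836; chromosome 6, 32840717 to 32844679). PSMB9, the counterpart of PSMB6 in the same stretch of the major histocompatibility locus, had 673, 779 and 736 in DMSO and 722, 779 and 703 in BRL-50481 (log2 fold change 0.011, standard error 0.0772, adjusted p = 0.912; chromosome 6, 32844136 to 32859851). PSMB10, the counterpart of PSMB7, had 483, 633 and 639 in DMSO and 585, 678 and 656 in BRL-50481 (log2 fold change 0.14, standard error 0.106, adjusted p = 0.287). Its DMSO replicate 1 was low beside the others, and the log2 fold change was 0.0052 without that library and at most 0.21 without any other. The signs of PSMB8 and PSMB9 are not settled, since PSMB8 turned positive under quantile normalization and median centring and PSMB9 turned negative without DMSO replicate 1 or BRL-50481 replicate 2. PSMB9 and PSMB10 share exon sequence on their strand with another annotated gene. PSMB10 was called higher when the libraries were corrected for transcript length and GC content (0.24, adjusted p = 0.00804).

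Since an immunoproteasome subunit replaces a constitutive one in the particle, each pair was also compared within libraries. The log2 ratio of PSMB8 to PSMB5 was −1.11, −1.09 and −1.07 in the DMSO libraries and −0.55, −0.50 and −0.51 in the BRL-50481 libraries, a difference of 0.57. For PSMB9 to PSMB6 it was −2.36 in each of the DMSO libraries and −1.93, −1.84 and −2.05 in the BRL-50481 libraries, a difference of 0.42. For PSMB10 to PSMB7 it was −3.64, −3.41 and −3.35 in DMSO and −3.28, −3.06 and −3.19 in BRL-50481, a difference of 0.29. In all 3 pairs every treated library had the higher ratio. The two-sided exact permutation test gave p = 0.1 for each pair, adjusted p = 0.1 over the 3 pairs, which is the smallest value that 3 libraries against 3 allow, so that none passed the threshold. Expressed per transcript length, PSMB8 made up 30.4% ± 0.290 of its pair in DMSO and 39.3% ± 0.422 in BRL-50481 as mean ± SD of 3 libraries. The share of PSMB9 was 13.6% ± 0.00620 and 17.4% ± 1.01, and that of PSMB10 was 8.36% ± 0.802 and 10.0% ± 0.676. The higher ratios went with lower values of the constitutive genes, whose log2 fold changes are given above, and with log2 fold changes between −0.015 and 0.14 for the immunoproteasome genes.

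**Figure D3:**
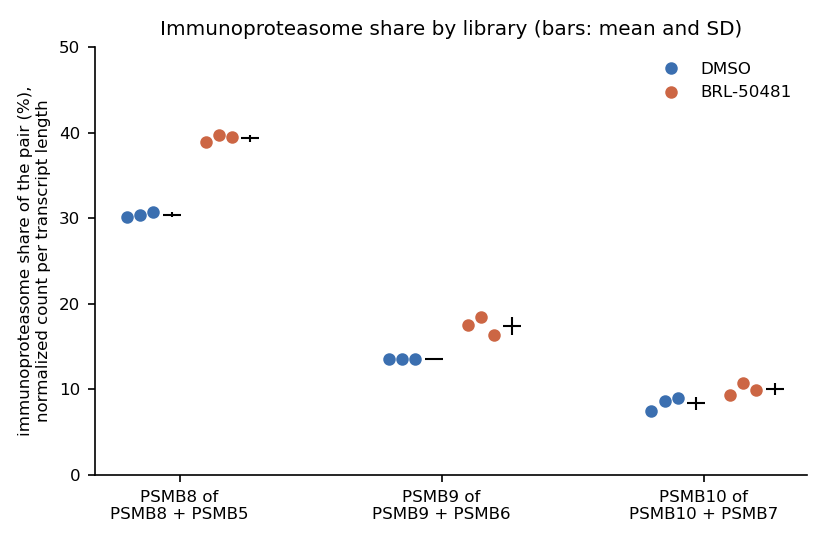
Share of the immunoproteasome gene in each catalytic pair, in percent of the pair's normalized counts per transcript length (vertical axis), for DMSO (blue) and BRL-50481 (orange) libraries, with mean and SD beside them. In the PSMB8 pair the DMSO libraries lie near 30.4% and the BRL-50481 libraries near 39.3%, and in no pair do the groups overlap.

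In the ATPase ring of the 19S base, 5 of 6 genes fell (83.3%) and 1 rose (16.7%). Of all genes within the proteasome genes' range of mean counts, 39.8% were lower and 29.0% higher. PSMC4 fell most of all 49 genes, from 4305, 4804 and 4587 normalized counts in DMSO to 2902, 3120.5 and 2908 in BRL-50481 (log2 fold change −0.62, standard error 0.0559, adjusted p = 9.97e-07; chromosome 19, 39971165 to 39981764). PSMC1, which encodes another ATPase of the same hexamer, had 1198, 1238 and 1283 in DMSO and 1593, 1452 and 1548 in BRL-50481 (log2 fold change 0.30, standard error 0.0612, adjusted p = 0.00085). Both genes were separated between the groups, in opposite directions. PSMC2 (−0.27), PSMC3 (−0.18), PSMC6 (−0.17) and PSMC5 (−0.15) fell by less. Of the 6 fits without 1 library, the call of PSMC5 held in 1, the fit without DMSO replicate 1, and that of PSMC6 was lost without BRL-50481 replicate 2 or 3. Quantile normalization lost both calls, and median centring and limma without a trend lost that of PSMC5. For PSMC1, 13 annotated pseudogenes carry its name, and reads that fit both could not be assigned with certainty.

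Of the 3 non-ATPase genes of the base, 2 rose (66.7%) and 1 did not pass the threshold. Rises made up 29.0% of all genes within the proteasome genes' range of mean counts. PSMD2, a large scaffold of the base, had 16739, 17226 and 16622 in DMSO and 20377, 20899 and 20651 in BRL-50481, a rise of 22.4% (log2 fold change 0.29, standard error 0.0419, adjusted p = 5.43e-05; chromosome 3, 184299198 to 184309050). PSMD1, its partner scaffold, rose by 0.28 on the log2 scale (adjusted p = 0.000224). PSMD4, which binds ubiquitin chains, had 4631, 5147 and 4988 in DMSO and 4749, 4709 and 4860.0 in BRL-50481, with overlapping groups (log2 fold change −0.043, standard error 0.0516, adjusted p = 0.492). Summed over the 9 base genes, ATPases included, the DMSO libraries had 46906, 49454 and 48194 normalized counts and the BRL-50481 libraries 48886, 49051 and 48999.9, so that the groups overlapped. That sum joins 2 parts that moved apart. The ATPase sum was 0.852 of its DMSO level and the non-ATPase sum 1.17, and in each part the groups were separate.

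In the 19S lid all 8 genes had negative log2 fold changes with a median of −0.35, and 6 passed the threshold. PSMD8 fell most, from 8390.2, 9912 and 9280.0 to 5991, 6202 and 6140.4 normalized counts (log2 fold change −0.59, standard error 0.0582, adjusted p = 2.2e-06). PSMD12 (−0.50), PSMD14 (−0.45), PSMD7 (−0.42), PSMD11 (−0.28) and PSMD3 (−0.23) followed. PSMD14 encodes the deubiquitinase that cuts ubiquitin chains off substrates, and PSMD7 is its binding partner. PSMD6 changed least, with 2689, 2951 and 3031 in DMSO and 2779.5, 2700.5 and 2759.5 in BRL-50481 (log2 fold change −0.072, standard error 0.0564, adjusted p = 0.292). Without DMSO replicate 1, PSMD6 and PSMD13 (−0.093) passed the threshold as well, at adjusted p = 0.017 and 0.00756. The summed lid was 44339, 48513 and 48182 normalized counts in DMSO and 36036, 36025 and 36883 in BRL-50481, or 0.772 of the DMSO level.

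**Figure D4:**
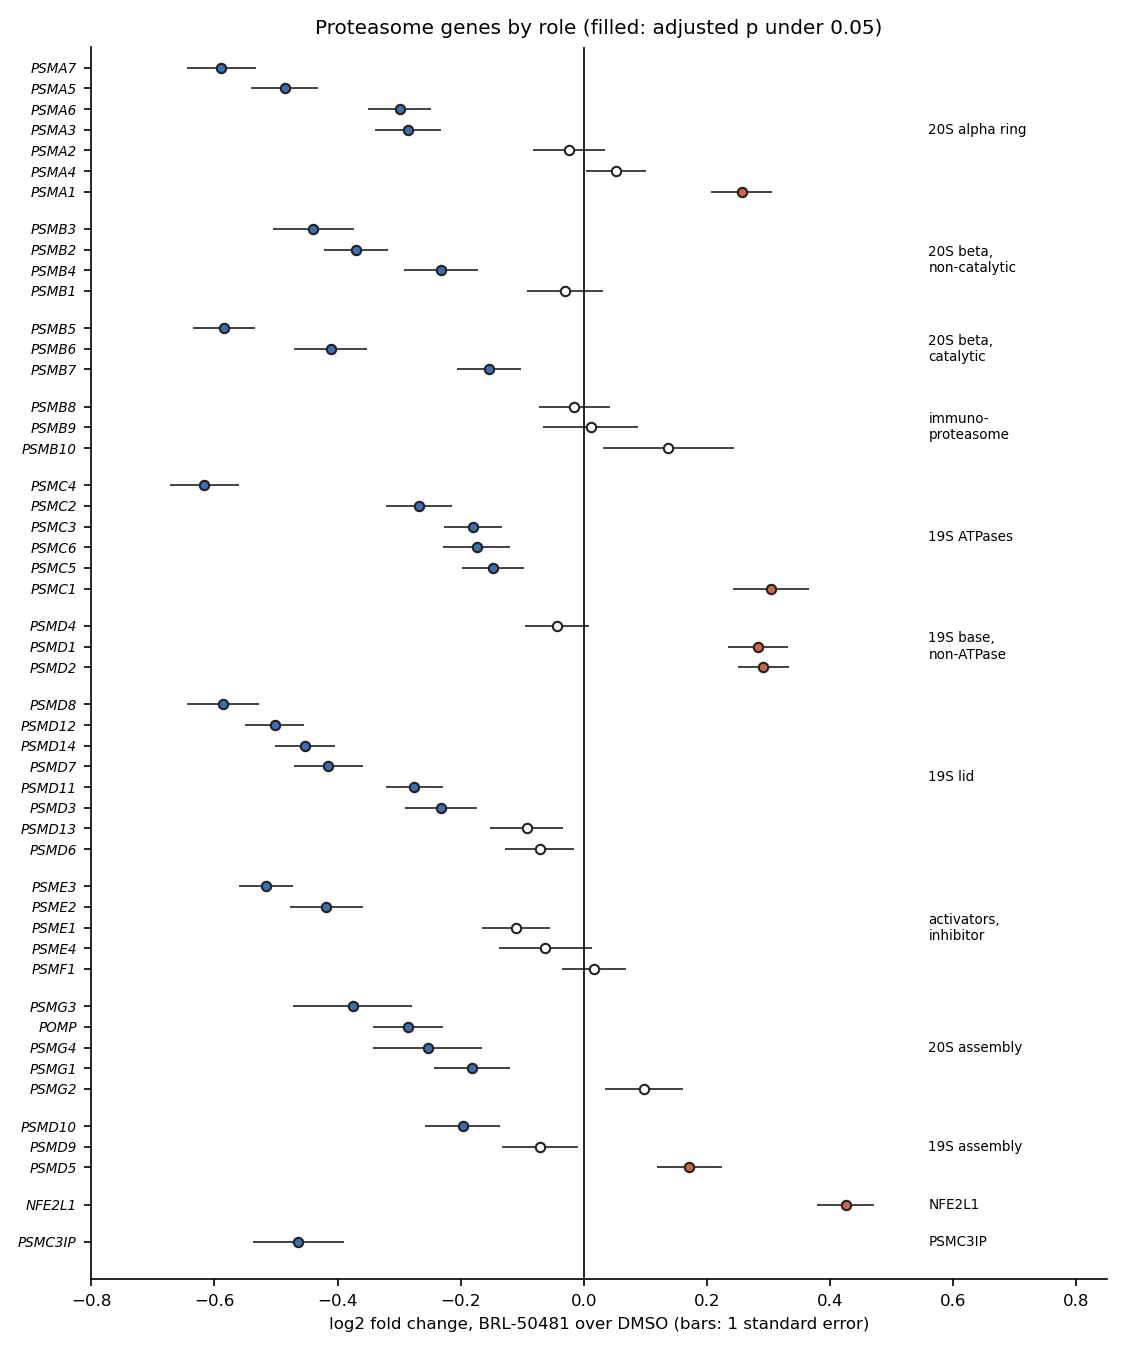
Log2 fold change of BRL-50481 over DMSO (horizontal axis, bars of 1 standard error) for the 49 proteasome genes (vertical axis), grouped by role. Filled circles passed an adjusted p under 0.05, blue for lower and orange for higher, and open circles did not. The lid and the constitutive beta ring lie to the left of 0, the immunoproteasome genes straddle it, and PSMD1, PSMD2, PSMC1, PSMA1, PSMD5 and NFE2L1 lie to the right.

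Of the 4 activators that cap the barrel in other ways and the 1 inhibitor, 2 fell and 3 did not pass the threshold. Falls were about as common here as among all genes within the proteasome genes' range of mean counts, of which 39.8% were lower. PSME3, the nuclear activator that works without ubiquitin, had 7984, 7762 and 7749 normalized counts with DMSO and 5554, 5514 and 5361 in BRL-50481 (log2 fold change −0.52, standard error 0.0446, adjusted p = 6.54e-07). PSME2, which forms the interferon-inducible activator ring with PSME1, had 3625, 4054 and 4033 in DMSO and 2991, 2768 and 2999.9 in BRL-50481 (log2 fold change −0.42, standard error 0.0589, adjusted p = 4.6e-05). Both fell with no overlap, and 6 annotated pseudogenes carry the name of PSME2. PSME1 had 6319, 7265 and 6955 in DMSO and 6313, 6228 and 6459 in BRL-50481 (log2 fold change −0.11, standard error 0.0549, adjusted p = 0.102), and passed the threshold as lower only in the fit without DMSO replicate 1 (−0.17, adjusted p = 0.000258) among those with a library left out. PSME4, the nuclear activator of a single large chain, had 6105, 4769.6 and 4993 in DMSO and 5146, 4938 and 5024 in BRL-50481 (log2 fold change −0.063, standard error 0.0757, adjusted p = 0.498). DMSO replicate 1 alone was high, and without it the sign of PSME4 turned to 0.045. PSMF1, an inhibitor of the core, had 3377, 3605 and 3290.1 in DMSO and 3406, 3537 and 3440.0 in BRL-50481 (log2 fold change 0.016, standard error 0.0521, adjusted p = 0.805). PSMF1, PSME2, the 19S subunit gene PSMC2 and the 19S assembly factor gene PSMD9 overlap exons of another annotated gene on their strand. PSME4 and PSMF1 have the longest transcripts of the 49, and after the correction for length and GC content both were called lower (−0.24 and −0.14, adjusted p = 4.64e-05 and 0.0302).

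Among the 8 assembly factors, 5 fell (62.5%), 1 rose (12.5%) and 2 did not pass the threshold. Of all genes within the proteasome genes' range of mean counts, 39.8% were lower and 29.0% higher. POMP, which brings beta subunits into the nascent core, had 3042, 3423 and 3359.6 normalized counts with DMSO and 2759, 2617 and 2674 in BRL-50481 (log2 fold change −0.29, standard error 0.0571, adjusted p = 0.000804). PSMG3, a chaperone of the alpha ring, had 701, 918 and 885 in DMSO and 603, 666 and 649 in BRL-50481 (log2 fold change −0.38, standard error 0.0964, adjusted p = 0.00457). For both, every treated library was below every control. PSMG1, which pairs with PSMG2 as another alpha-ring chaperone, had 1901, 2144 and 2146 in DMSO and 1869, 1777 and 1804 in BRL-50481 (log2 fold change −0.18, standard error 0.0616, adjusted p = 0.0216). PSMG4, the partner of PSMG3, had 683, 863 and 821 in DMSO and 668, 625 and 683 in BRL-50481 (log2 fold change −0.25, standard error 0.0892, adjusted p = 0.0259). The groups of PSMG4 overlapped, and the calls of PSMG1 and PSMG4 each held in 2 of the 6 fits with a library left out. Both were lost in limma without a trend, and that of PSMG1 with quantile normalization. PSMG2 (0.098, adjusted p = 0.202) passed as higher without DMSO replicate 2 (0.16, adjusted p = 0.0422), with quantile normalization (0.17, adjusted p = 0.0466) and with the correction for length and GC content (0.13, adjusted p = 0.0157).

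The chaperones of the 19S base went different ways. PSMD5, which holds a part of the ATPase ring until it is assembled, had 2298, 2240.3 and 2323 in DMSO and 2651, 2616 and 2463 in BRL-50481 (log2 fold change 0.17, standard error 0.053, adjusted p = 0.0135). PSMD10, also known as the oncoprotein gankyrin, had 1977, 2031 and 2089 in DMSO and 1916, 1701 and 1709.8 in BRL-50481 (log2 fold change −0.20, standard error 0.0613, adjusted p = 0.0141). The rise of PSMD5 was lost without BRL-50481 replicate 1 or 2, and the fall of PSMD10 without DMSO replicate 3 or BRL-50481 replicate 2 or 3 and with quantile normalization. PSMD9, the remaining one, had a log2 fold change of −0.071 and did not pass the threshold.

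NFE2L1 had the largest rise of the 49 genes. It had 18077, 16836 and 16673 normalized counts with DMSO and 22729, 23561 and 22957 in BRL-50481, or 17196 ± 768 and 23083 ± 430 as mean ± SD of 3 libraries, a rise of 34.3% (log2 fold change 0.43, standard error 0.0461, adjusted p = 4.67e-06; chromosome 17, 48048329 to 48061545). Every treated library lay above every control, the log2 fold change ranged from 0.40 to 0.46 over the fits without 1 library, and it was 0.35 after the correction for length and GC content. The message of this regulator and those of most subunits moved in opposite directions. Its activity is set mainly on the protein, which is drawn out of the endoplasmic reticulum, stripped of sugars and cut before it enters the nucleus, and no protein was measured here.

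Of 12 genes that process, degrade or partner NFE2L1, 8 fell, 3 rose and 1 did not pass the threshold. For comparison, 29.8% of all genes tested were lower and 28.9% higher. Among those within the proteasome genes' range of mean counts, 39.8% were lower and 29.0% higher. The share of falls among the 12 was above both backgrounds, and the share of rises was not. MAFG, a small MAF protein with which NFE2L1 pairs on DNA, had 6178, 7012 and 6587 normalized counts with DMSO and 3748, 3758 and 3705 in BRL-50481 (log2 fold change −0.82, standard error 0.0532, adjusted p = 6e-08). The other small MAF genes, MAFF (−0.61) and MAFK (−0.59), fell too, and in all of them the groups were separate. NGLY1 (−0.38), the enzyme that strips the sugars, SEL1L (−0.39) and SYVN1 (−0.25), which belong to the ubiquitin ligase of the endoplasmic reticulum, and BTRC (−0.26) were lower. DDI2, the protease that cuts NFE2L1, had the largest rise of the list but few reads, with 265, 106 and 149 in DMSO and 244, 229.7 and 252 in BRL-50481 (log2 fold change 0.58, standard error 0.237, adjusted p = 0.0494). Its groups overlapped, and the call held only without DMSO replicate 1 among the 6 fits with a library left out, over which the log2 fold change ran from 0.28 (without DMSO replicate 2) to 0.94 (without DMSO replicate 1). The call was also lost with the correction for length and GC content (0.36, adjusted p = 0.102) and with quantile normalization (adjusted p = 0.106). The related factor NFE2L3 rose by 0.41 (adjusted p = 5.67e-06), while NFE2L2, which drives antioxidant genes, was at 0.0035 (adjusted p = 0.954). Apart from MAFG and DDI2, these genes of the list were named after their values were seen.

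**Figure D5:**
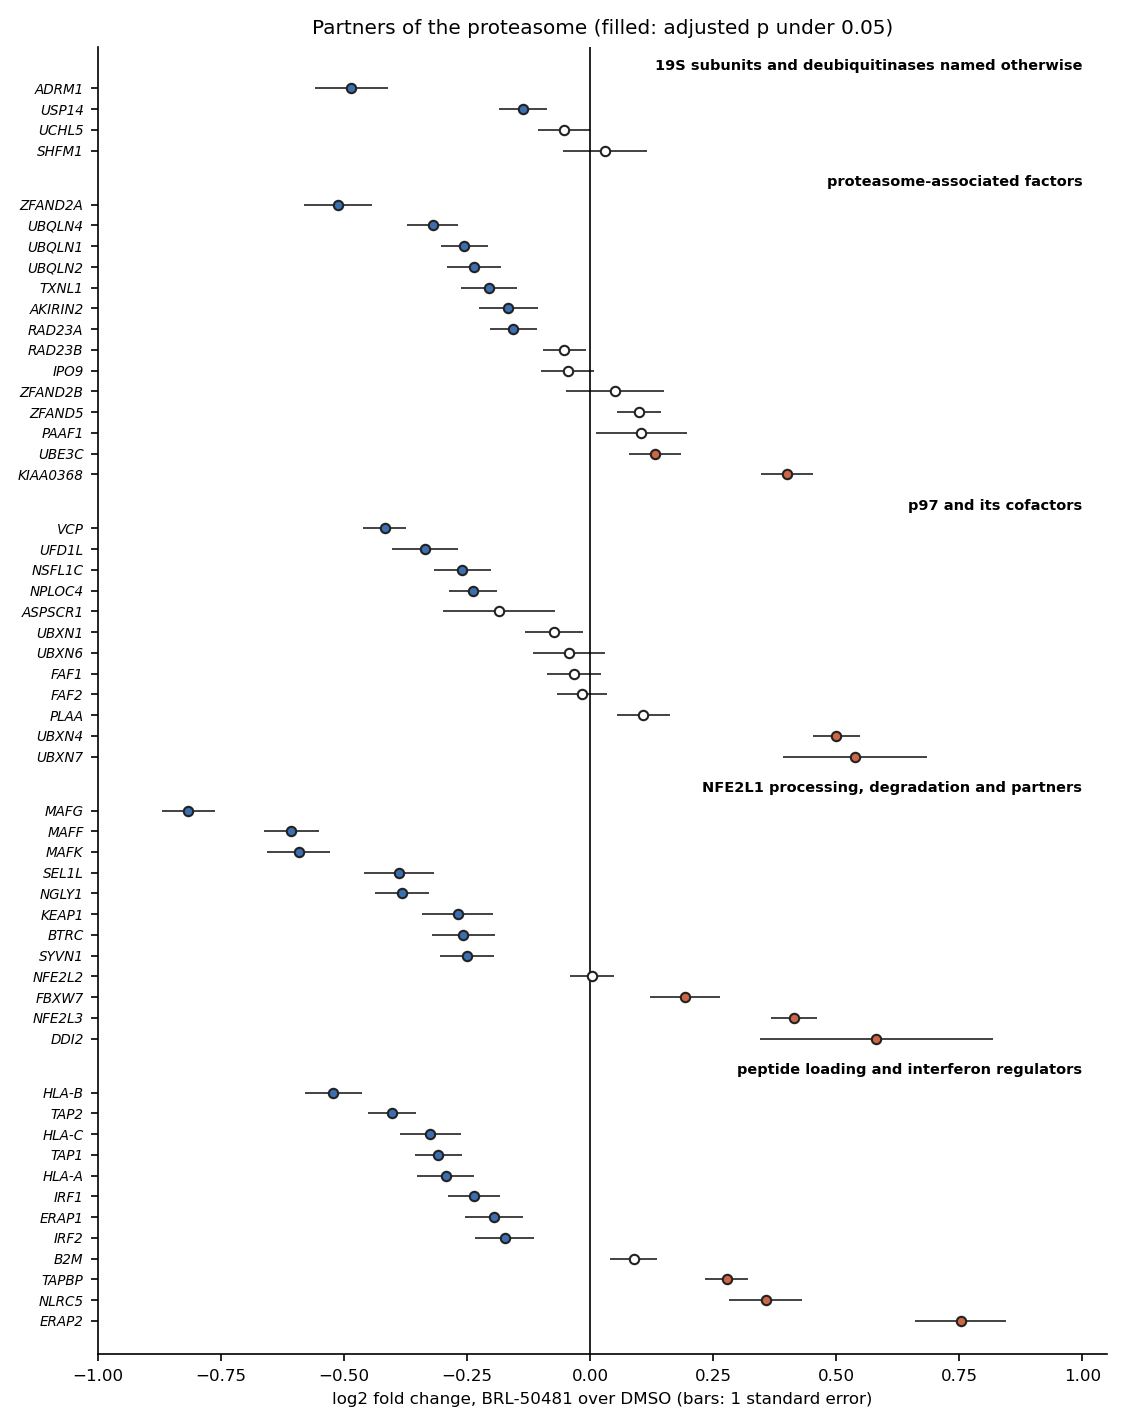
Log2 fold change of BRL-50481 over DMSO (horizontal axis, bars of 1 standard error) for 54 genes that work with the proteasome (vertical axis), in 5 lists. Filled circles passed an adjusted p under 0.05, blue for lower and orange for higher, and open circles did not. The small MAF genes lie farthest to the left, from −0.59 to −0.82.

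NFE2L1 and small MAF proteins bind the antioxidant response element, so promoters of the proteasome genes were searched for its core, TGACNNNGC, on both strands of the 250 bases before the RefSeq start site (GRCh38.p14). Of the 49 genes 43 had a promoter in the table. The core was present in 11 of them (25.6%), against 11.0% of 27305 promoters of all genes and 12.1% of 10958 promoters of tested genes. It was found in 5 of 25 genes that fell, 1 of 6 that rose and 5 of 12 that did not pass the threshold. The promoters of 4 genes with the core are shown because they come from the lid, the beta ring and the assembly factors and include genes that moved each way, with the core in capitals.
PSMB3 (chr17:38752491-38752740, plus strand): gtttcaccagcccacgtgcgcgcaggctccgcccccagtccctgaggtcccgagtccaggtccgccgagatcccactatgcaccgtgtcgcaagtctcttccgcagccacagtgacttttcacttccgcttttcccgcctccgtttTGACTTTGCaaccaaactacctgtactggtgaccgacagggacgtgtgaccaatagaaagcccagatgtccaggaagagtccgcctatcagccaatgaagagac
PSMD3 (chr17:39980557-39980806, plus strand): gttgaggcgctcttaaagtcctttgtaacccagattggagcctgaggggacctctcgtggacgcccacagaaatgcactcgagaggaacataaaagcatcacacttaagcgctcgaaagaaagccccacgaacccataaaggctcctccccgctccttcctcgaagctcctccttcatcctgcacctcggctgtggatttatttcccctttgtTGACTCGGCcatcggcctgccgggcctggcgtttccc
PSMD12 (chr17:67366578-67366827, minus strand): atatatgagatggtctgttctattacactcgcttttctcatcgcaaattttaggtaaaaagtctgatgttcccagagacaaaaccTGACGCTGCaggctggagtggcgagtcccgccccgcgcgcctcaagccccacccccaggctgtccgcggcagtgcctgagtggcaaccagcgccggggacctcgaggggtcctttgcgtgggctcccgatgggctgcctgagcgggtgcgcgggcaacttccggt
PSMD5 (chr9:120842923-120843172, minus strand): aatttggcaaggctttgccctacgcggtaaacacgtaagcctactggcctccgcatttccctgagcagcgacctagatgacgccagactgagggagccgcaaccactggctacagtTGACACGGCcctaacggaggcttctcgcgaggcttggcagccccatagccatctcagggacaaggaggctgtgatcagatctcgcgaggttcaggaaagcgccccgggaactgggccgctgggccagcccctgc
PSMB3, PSMD3 and PSMD12 are genes that fell and PSMD5 is the one that rose. A CCAAT box, searched as CCAAT, was present in 19 of the 43 promoters (44.2%), against 33.0% of all promoters and 34.9% of those of tested genes. It was found in 15 of the 25 genes that fell, 1 of the 6 that rose and 3 of the 12 that did not pass the threshold. For neither motif was the split by direction made over all tested genes, so a link to the falls was not tested. These matches describe the letters of the windows and are not measured binding sites.

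The core of the interferon-stimulated response element, searched on both strands as GAAA, any 2 bases and GAAA, was present in 5 of the 43 promoters (11.6%). All promoters had it in 3.07% and those of tested genes in 2.45%. The core of the gamma-activated site, TTCNNNGAA, was present in 4 (9.30%), against 6.78% and 5.91%. None of the 48 matches to the 4 motifs in these promoters overlapped a match to another. One of the interferon matches begins 21 bases before the start site of PSMB10, whose promoter is shown because it is the immunoproteasome gene with this element, again with the core in capitals.
PSMB10 (chr16:67936851-67937100, minus strand): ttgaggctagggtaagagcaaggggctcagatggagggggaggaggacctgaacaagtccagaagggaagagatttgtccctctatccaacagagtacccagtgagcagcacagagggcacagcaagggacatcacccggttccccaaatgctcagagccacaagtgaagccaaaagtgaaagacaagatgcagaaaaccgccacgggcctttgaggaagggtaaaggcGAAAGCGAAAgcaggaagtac
PSME2 and PSMG4 carry the same GAAAGCGAAA letters. Of these genes PSME2 and PSMG4 fell and PSMB10 did not pass the threshold.

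Peptides cut by the immunoproteasome are loaded on class I molecules. Of 12 genes of peptide loading and interferon regulation, 8 fell, 3 rose and 1 did not pass the threshold. Over all genes tested, 29.8% were lower and 28.9% higher. Within the proteasome genes' range of mean counts these shares were 39.8% and 29.0%. Rises were thus no more common among these 12 genes than in either background, while falls were more common. HLA-B, a class I molecule, had 52325, 62562 and 57872 normalized counts with DMSO and 39101, 40719 and 40168 in BRL-50481 (log2 fold change −0.52, standard error 0.0585, adjusted p = 6.26e-06), and reads of the similar class I genes may be shared. With quantile normalization its log2 fold change was −0.30. ERAP2, a peptide-trimming enzyme, had 287, 263 and 306 in DMSO and 508, 489 and 446 in BRL-50481 (log2 fold change 0.75, standard error 0.0932, adjusted p = 1.51e-05). Both were separate between the groups. TAP1 (−0.31) and TAP2 (−0.40), the peptide transporters encoded beside PSMB8 and PSMB9, fell, as did IRF1 (−0.24), which activates PSMB9 and TAP1, while NLRC5 (0.36) rose. These 4 genes were named after their values were seen.

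Of the 4 genes of the 19S particle and its deubiquitinases with other names, 2 fell (50.0%, against 29.8% of all genes) and 2 did not pass. ADRM1, a ubiquitin receptor, fell from 7183, 9172 and 8621 to 5679, 5978 and 6095 normalized counts (log2 fold change −0.49, standard error 0.0746, adjusted p = 9.71e-05). Of 14 factors that associate with the proteasome, 7 fell (50.0%), 2 rose (14.3%, against 28.9% of all genes) and 5 did not pass. ZFAND2A, a stress-induced partner of the 19S particle, had 832, 916 and 858 in DMSO and 601, 599 and 625 in BRL-50481 (log2 fold change −0.51, standard error 0.0695, adjusted p = 3.39e-05). KIAA0368 (ECPAS), the scaffold that holds the 19S and 20S particles together, rose from 9028, 7851 and 8166 to 10913, 10944 and 11124 (log2 fold change 0.40, standard error 0.0537, adjusted p = 3.08e-05). Every treated library of these genes lay on 1 side of the controls. The segregase p97, encoded by VCP, pulls substrates out of complexes ahead of the proteasome. Of p97 and its 11 cofactors, 4 fell (33.3%), 2 rose and 6 did not pass. The share of falls was near the 29.8% of all genes. It was below the 39.8% of genes within the proteasome genes' range of mean counts. VCP had 14177, 14451 and 13975 in DMSO and 10286, 10847 and 10754 in BRL-50481 (log2 fold change −0.42, standard error 0.0439, adjusted p = 3.6e-06), and UBXN7, a cofactor that joins p97 to cullin ligases, had 1867, 1098 and 1150.2 in DMSO and 1961, 1868 and 1974 in BRL-50481 (log2 fold change 0.54, standard error 0.147, adjusted p = 0.00651). DMSO replicate 1 of UBXN7 lay almost at the level of the treated libraries, and its call held without any 1 library. After the correction for length and GC content, KIAA0368 was at 0.22 and UBXN7 at 0.31, both still called. Over all 54 genes of the 5 lists, 29 fell (53.7%) and 10 rose (18.5%), with a median log2 fold change of −0.17. Over all genes tested these were 29.8%, 28.9% and 0.015. Over the genes within the proteasome genes' range of mean counts they were 39.8%, 29.0% and −0.054.

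PSMC3IP matched the name pattern but is not part of the proteasome, since it encodes a partner of the recombinase DMC1 in homologous recombination. It had 878, 973 and 1020.4 normalized counts with DMSO and 704, 669.8 and 705 in BRL-50481 (log2 fold change −0.46, standard error 0.0734, adjusted p = 0.000124). Without it, 28 of 48 genes were lower and 6 higher, with a median of −0.18.

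The median transcript of the 49 genes has 1470 bases and that of all genes tested 3173, and across genes longer transcripts had the higher log2 fold changes. The rank correlation of length and log2 fold change was 0.197 over the 49 genes and 0.175 over 14738 genes, which share the 6 libraries and are not independent. After each library was corrected for its trend on length and GC content, 31 of the 49 genes were lower and 8 higher. Their median was −0.18. The background moved too, with 5486 genes lower and 4196 higher over the 14738 genes corrected. Without the correction these were 4546 and 4400 of 15246 genes.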

How the data were processed

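RNA-seq of 6 libraries of MDA-MB-231 cells was analysed, grouped by the titles of the labels. Per the Methods and the labels' processing notes, the authors aligned reads to hg38 with STAR 2.7.1a, counted them on the UCSC annotation with htseq-count, using the reverse strand and normalized them with DESeq2. The library protocol names oligo-dT selection, the series record ribosomal depletion. The deposited signal is the read count over the library's size factor, and 100% of values were whole multiples of 1 read (within 1e-06 of a read), so that the reads were recovered. The deposited fold changes, standard errors and p-values of the authors' own test were not used. Genes that reached a normalized count of 4 in 3 or more libraries were tested with limma 3.58.1 in R 4.3.3 (eBayes with trend, groups only) on log2(value + 1), because the values are normalized; fold changes are on that scale. edgeR 4.0.16 (quasi-likelihood) and DESeq2 1.42.0 on recovered reads, other pseudocounts, filters and scalings, a loess correction for length and GC content (span 0.5), the replicate block and leaving out each library were alternatives. The catalytic pairs were tested by exact permutation with scipy 1.17.1 in Python 3.11.15, and figures drawn with matplotlib 3.10.9. On simulated counts with 200 changed genes of this comparison (15246 genes), limma found 100% of changes of 1 and 82% of changes of 0.5 on the log2 scale, and called 10 of 15046 unchanged genes. The changed genes had means of at least 50 normalized counts and went up and down in equal number. In the data 58.7% of genes were called, and recovery at such a share or for smaller changes was not tested.

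Members, lists, roles and motifs were chosen with earlier results of these data known. All members are accounted for; values by library are given for the catalytic and immunoproteasome genes, the activators and inhibitor, called assembly factors, NFE2L1, the members with the highest and lowest log2 fold change of each other ring or subcomplex, and the called gene of each partner list with the largest change each way. PSMA8 and PSMB11 were not analysed here. 1 gene of a partner list is not reported here and was left out of its counts. Positions, lengths and overlaps are those of GENCODE release 44 on hg38, matched by symbol for 14216 genes and by an older symbol for 891 (96.5% in all); the UCSC annotation was not used here. Promoter sequences are those of RefSeq.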

Additional observations from a re-analysis of the deposited data

How the results depend on the processing

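The counts of 29 lower and 6 higher proteasome genes and their median log2 fold change of −0.18 held their direction and size under the alternatives tried, with 24 to 31 lower, 6 to 8 higher and medians between −0.19 and −0.14 over those that kept all libraries. The 31 lower genes came with the correction for length and GC content, which called 5486 lower over all genes against 4546 without it. edgeR and DESeq2 on the recovered reads both gave 29 lower and 6 higher. Leaving out 1 library at a time gave 23 to 32 lower, 5 to 7 higher and medians from −0.22 to −0.17. Over all genes those fits gave 4027 to 4933 lower and 3751 to 4876 higher. Over the 17 alternatives of each gene, 28 of the 35 called genes kept their call throughout, 7 (PSMB7, PSMC5, PSMC6, PSMD5, PSMD10, PSMG1 and PSMG4) lost it in at least 1, and 0 turned sign. The cause was not tested.

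Signs turned in 8 genes that did not pass the threshold. With quantile normalization PSMA2 was at 0.019, PSMB1 at 0.013, PSMB8 at 0.049 and PSMD4 at 0.0040, and with median centring PSMA2 was at 0.0063, PSMB1 at 0.00049 and PSMB8 at 0.015. With the correction for length and GC content PSMA4 was at −0.050, PSMB1 at 0.025, PSMB8 at 0.044 and PSMF1 at −0.14. With a library left out, the log2 fold change ran from −0.087 to 0.020 in PSMA2, −0.088 to 0.041 in PSMB1, −0.060 to 0.015 in PSMB8, −0.046 to 0.060 in PSMB9, −0.13 to 0.045 in PSME4 and −0.012 to 0.054 in PSMF1.

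The differences in log2 ratio of the catalytic pairs stayed between 0.56 and 0.58 (PSMB8 to PSMB5), 0.37 and 0.47 (PSMB9 to PSMB6) and 0.20 and 0.35 (PSMB10 to PSMB7) with a library left out, where exact p-values cannot reach 0.05. Same-numbered libraries deviated together only weakly (correlations 0.121, 0.104 and 0.0514), and BRL-50481 replicate 3 correlated more with DMSO replicate 2 than with its own number, so the numbers were not taken as pairs. The replicate block gave 29 lower and 6 higher proteasome genes, the same counts, and 4589 lower and 4440 higher over all genes.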

Other observations

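Antisense transcripts named after proteasome genes were left out of the 49 genes and are given here as values. PSMG3-AS1 had 73.4, 80.3 and 80.7 normalized counts in DMSO and 157, 158 and 156 in BRL-50481 (log2 fold change 1.00, standard error 0.128, adjusted p = 2.1e-05), while PSMG3 itself fell. PSMD5-AS1 had 436, 381 and 352 in DMSO and 620.1, 677 and 664 in BRL-50481 (log2 fold change 0.75, standard error 0.0903, adjusted p = 1.19e-05), beside a smaller rise of PSMD5. Both transcripts were higher in every treated library than in any control. PSMA3-AS1 fell by 0.22 on the log2 scale (adjusted p = 0.0145), and the call was lost without DMSO replicate 3 or BRL-50481 replicate 2. PSMB8-AS1 (0.24, adjusted p = 0.106) and PSMD6-AS2 (0.14, adjusted p = 0.616), the latter with few reads, did not pass the threshold. Counting used the strand of the reads.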
